A study of Rattus norvegicus with 26 samples.

Results

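The genes described here are Cd74, RT1-Ba, RT1-Bb, RT1-Da and RT1-Db1, which encode parts of the class II major histocompatibility complex (MHC) machinery, and Cd3e, which encodes a chain of the T-cell receptor complex. They are 6 of the 14506 genes that the array measured with a probe set assigned to a single gene symbol. The genes were chosen by name because their levels in individual rats, after the mean of each diet was subtracted, had been looked at together before. That covariation is therefore given as a description, with no test. Each of the 6 genes had 1 probe set, and no minimum level was required. The median over all probe sets of the mean level was 6.94 on the log2 intensity scale, and 4 of the 6 genes lay at or above it. RT1-Da, with a mean of 6.79, and RT1-Db1, with 6.08, lay below it and would have been lost to a filter at that level.

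The hippocampus of 26 male F344 rats aged 18 months was profiled on Rat Gene 1.0 ST arrays, with 1 array for each rat. Rats had eaten a purified diet that held 100 (low), 1000 (control) or 10000 (high) IU of vitamin D3 per kg, and 8, 9 and 9 rats came from these diets. All groups shared the strain, sex, age and base diet, and no allele, transgene or injected agent is named in the labels. Rats were kept in pairs, a tail mark told cage mates apart, and 12 of the 14 cages had both rats measured, so rats of a cage share their surroundings. RNA was taken from whole tissue blocks, in which more cells of a type and more RNA per cell cannot be told apart. Values are the authors' log2 intensities, with array medians between 6.92 and 6.96 and a mean correlation of each array with the others between 0.997 and 0.998. Levels are compared between rats within a gene, and the median over all probe sets serves as a rough mark of low signal.

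Class II molecules are pairs of an alpha and a beta chain that carry peptides from taken-up proteins to the cell surface, where CD4+ T cells read them. Cd74, the invariant chain, fills the groove of a new pair and guides it to the compartment where peptides are loaded. In the brain, class II is low in most resting microglia and higher in activated microglia, in macrophages at the brain's borders and in dendritic cells. RT1 is the rat's MHC. RT1-Ba and RT1-Bb encode the alpha and beta chains of 1 class II molecule, and RT1-Da and RT1-Db1 those of another. Cd3e encodes the epsilon chain of CD3, which passes the signal of the T-cell receptor into the cell.

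Because the class II genes are known to be switched on through a shared promoter module, the stretch upstream of the 4 chain genes is shown. In this module an X box, bound by the RFX complex, lies a short way before a Y box, bound by NF-Y, and the coactivator CIITA joins the bound factors. The windows shown run from position -150 to -37 relative to the start of each gene, on the gene's own strand, and come from RefSeq promoters of build GRCr8. Capitals mark matches to the X letters ACNGATG, a part of the X box, the Y letters CTGATTGG or, in RT1-Ba alone, the CRE letters TGACGTCA. RT1-Ba lies at chr20:4576907-4577020 on the plus strand, RT1-Bb at chr20:4604155-4604268 on the minus strand, RT1-Da at chr20:4515265-4515378 on the plus strand and RT1-Db1 at chr20:4560199-4560312 on the minus strand.
RT1-Ba: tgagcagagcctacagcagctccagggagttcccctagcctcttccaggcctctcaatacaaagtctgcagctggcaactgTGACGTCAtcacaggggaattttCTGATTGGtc
RT1-Bb: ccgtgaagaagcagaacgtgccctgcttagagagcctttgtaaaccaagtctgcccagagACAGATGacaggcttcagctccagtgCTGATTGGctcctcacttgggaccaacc
RT1-Da: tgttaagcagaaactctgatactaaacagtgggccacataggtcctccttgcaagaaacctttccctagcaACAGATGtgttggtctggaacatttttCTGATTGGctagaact
RT1-Db1: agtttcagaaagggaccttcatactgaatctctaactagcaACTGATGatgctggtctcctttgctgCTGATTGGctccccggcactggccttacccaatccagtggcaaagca

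The Y letters stood on the gene's strand in all 4 windows, starting at positions -46, -64, -52 and -83 of RT1-Ba, RT1-Bb, RT1-Da and RT1-Db1. In RT1-Bb, RT1-Da and RT1-Db1 the X letters preceded them, with 19, 20 and 19 bases between. Both strands of the 250 upstream bases of 33469 rat promoters were searched. The Y letters, which contain ATTGG, the reverse complement of CCAAT, were in 3.19% of promoters, the shorter CCAAT in 34.0%, the X letters in 8.55% and the CRE letters in 1.59%. The X letters followed by the Y letters on 1 strand were in 26 promoters (0.0777%), among them those of RT1-Bb, RT1-Da, RT1-Db1 and the class II gene RT1-Db2. The X letters were written with these class II promoters in view, so this low share is not independent of them. In Cd74 only CCAAT was matched, and in Cd3e none of the letters searched were in these 250 bases. A match is a stretch of letters and not a measured binding site.

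In most rats the class II genes had similar levels, and in a few rats they were much higher. Cd74 had its lowest, median and highest values at 9.33, 9.52 and 12.22 on the low diet, at 8.99, 9.60 and 10.06 on the control diet and at 9.18, 9.79 and 11.19 on the high diet. The highest low-diet value came from rat 5 and the highest high-diet value from rat 25. Rat 5 was 6.48-fold above the median of its diet and rat 25 was 2.63-fold above the median of its own. The next rat on the low diet was rat 7 with 10.62, and on the high diet rat 24 with 10.53. The ranges of the 3 diets overlapped.

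The alpha chain genes had the same rats at the top. RT1-Ba ran from 6.73 over a median of 6.88 to 9.49 on the low diet, from 6.73 over 6.91 to 7.30 on the control diet and from 6.70 over 6.95 to 8.27 on the high diet. RT1-Da ran from 6.43 over 6.6 to 9.76 on the low diet, from 6.14 over 6.43 to 7.12 on the control diet and from 6.18 over 6.76 to 8.20 on the high diet. In both genes the top rats were rat 5 on low, rat 17 on control and rat 25 on high. Rat 5 was 6.09-fold above its diet median for RT1-Ba and 8.96-fold above it for RT1-Da. Without rat 5 the highest low-diet level of RT1-Da was 6.96, below the 7.12 of control rat 17.

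The beta chain genes had the same top rats on the low and high diets, with smaller steps in RT1-Db1. RT1-Bb ran from 6.81 over 7.04 to 9.43 on the low diet, from 6.75 over 6.93 to 7.19 on the control diet and from 6.71 over 7.13 to 8.15 on the high diet. RT1-Db1 ran from 5.79 over 6.03 to 6.71 on the low diet, from 5.83 over 6.01 to 6.06 on the control diet and from 5.90 over 6.11 to 6.55 on the high diet. Rats 5 and 25 were again the highest of their diets in both genes, at 5.26-fold and 2.02-fold above the median for RT1-Bb and at 1.60-fold and 1.36-fold for RT1-Db1. On the control diet the top rat was rat 17 for RT1-Bb and rat 9 for RT1-Db1.

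**Figure D1:**
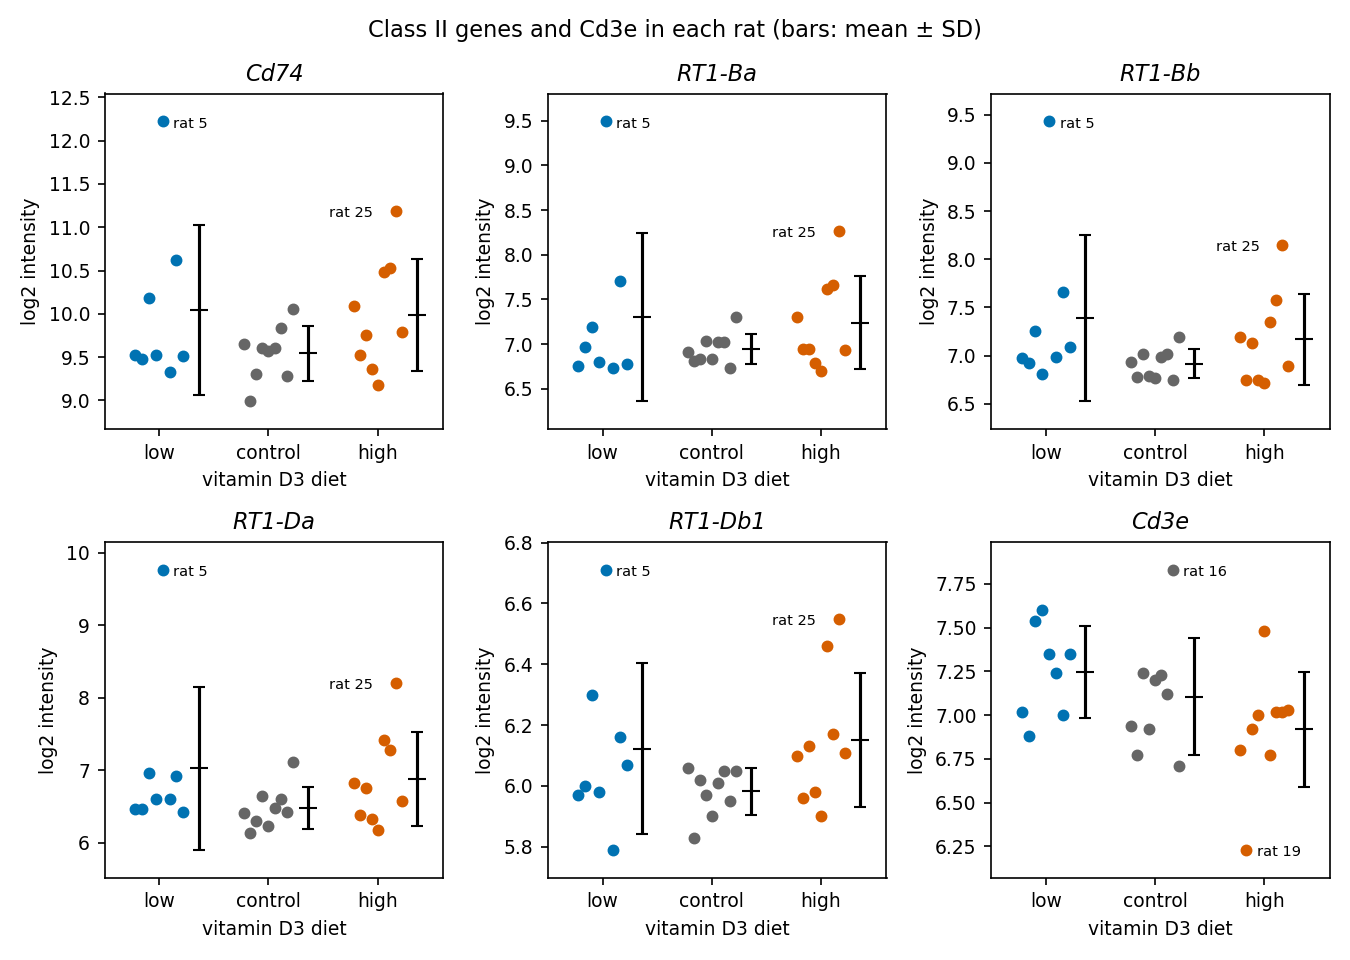
Log2 intensity (vertical axis) of the 6 genes in each rat, by diet, with 1 point for each rat (n = 8 low, 9 control and 9 high) and bars for the mean ± SD. In the 5 class II panels rat 5 tops the low diet and rat 25 the high diet, while in the Cd3e panel control rat 16, at 7.83, is the highest and high-diet rat 19, at 6.23, the lowest.

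Rats varied less on the control diet than on the others in all 5 class II genes. For Cd74 the SD over rats was 0.98 log2 on low, 0.32 on control and 0.65 on high. For RT1-Ba it was 0.94, 0.17 and 0.52 in the same order, for RT1-Bb 0.87, 0.15 and 0.47, for RT1-Da 1.12, 0.29 and 0.64, and for RT1-Db1 0.28, 0.08 and 0.22. Without rat 5 the low-diet SD was 0.47 for Cd74, 0.36 for RT1-Ba, 0.28 for RT1-Bb, 0.22 for RT1-Da and 0.16 for RT1-Db1, so for RT1-Da it was then under the control SD. Without rat 25 the high-diet SD was 0.50, 0.37, 0.32, 0.45 and 0.17 in the same order of genes. The differences in spread were not tested.

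More than the top rat of each diet exceeded the control range. For Cd74, 3 of 8 low-diet rats and 4 of 9 high-diet rats lay above the highest control rat. For RT1-Da these counts were 1 of 8 and 3 of 9, and for RT1-Db1, whose control values span 0.23 log2, they were 4 of 8 and 6 of 9. Rats 23, 24 and 25 were above every control rat in all 5 class II genes. On the low diet rat 5 alone was.

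No mean difference between diets in these genes passed the test. In the limma fit over all 14506 genes, called at a Benjamini-Hochberg adjusted p under 0.17, a false discovery rate that the series design names, 0 of the 6 genes and 0% of all genes were called in the F-test over the 3 diets or in any contrast. At an unadjusted p under 0.05, 0 of the 5 class II genes passed, against 4.31% of all genes in the F-test, 5.83% for high minus low, 4.47% for high minus control and 3.12% for low minus control. For high minus control this count changed with rat 5, without which the difference for Cd74 was the same, 0.44 log2, and its SE fell from 0.29 to 0.21: Cd74, RT1-Da and RT1-Db1 (3 of 5) passed at that unadjusted limit, against 4.54% of all genes. When values more than 2 SD off the mean of their diet were left out, RT1-Ba passed too (4 of 5, against 7.68%), and each adjusted p in limma stayed at 0.574 or above. A fit without limma's moderation also called 0 genes in each, and in it 608, 847, 656 and 449 genes had an unadjusted p under 0.05 in the same order. The 5 class II genes vary together over the rats, so these counts are not counts of independent genes. They cannot be read as an excess over the share of all genes. Other settings moved the unadjusted class II counts too. For high minus control Cd74 and RT1-Db1 passed in a fit to the compared diets alone (2 of 5, against 5.24%). RT1-Db1 passed with array weights (against 5.92%) and without high-diet rat 19, 21 or 22 (against 4.03% to 5.58%). For low minus control RT1-Bb passed without rat 1, 2, 4, 6 or 25, and RT1-Db1 also without rat 6 (against 2.68% to 4.32%).

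Class II means were higher on low and on high than on control, but no difference was called in this test. The mean of Cd74 was 10.05 ± 0.98 for low (SD, n = 8), 9.55 ± 0.32 for control (n = 9) and 9.99 ± 0.65 for high (n = 9). Its low minus control difference was 0.50 log2 (SE 0.30, 95% interval -0.11 to 1.12, limma adjusted p = 0.9995), and its high minus control difference was 0.44 log2 (SE 0.29, interval -0.15 to 1.04, limma adjusted p = 0.998). Over the 5 class II genes low minus control lay between 0.14 (RT1-Db1) and 0.54 log2 (RT1-Da), and high minus control between 0.17 (RT1-Db1) and 0.44 log2 (Cd74). High minus low lay between -0.22 (RT1-Bb) and 0.03 log2 (RT1-Db1). The intervals include shifts of over 1 log2 for RT1-Da in both contrasts with control (-0.13 to 1.21 and -0.25 to 1.05).

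Much of the low-diet mean came from rat 5. Without it, low minus control was 0.19 for Cd74, 0.046 for RT1-Ba, 0.18 for RT1-Bb, 0.15 for RT1-Da and 0.057 log2 for RT1-Db1. High minus low then turned positive in all 4 genes in which it was negative, up to 0.25 log2 for Cd74, RT1-Ba and RT1-Da. Without rat 25, high minus control for Cd74 was 0.29 log2 and for RT1-Da 0.23 log2. No member was called in any of these fits.

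Tail mark gave a comparison in which diet does not enter. Marked minus unmarked, with diet in the model, was 0.38 log2 for Cd74 (SE 0.24), 0.38 for RT1-Ba (0.21), 0.36 for RT1-Bb (0.19), 0.40 for RT1-Da (0.26), 0.09 for RT1-Db1 (0.07) and 0.14 for Cd3e (0.11). All 6 had a limma adjusted p of 0.982, so 0 of the 6 were called, as were 0% of all genes. With an unadjusted p under 0.05 as the limit, 0 of the 6 and 4.69% of all genes passed. Without low-diet rat 1 or high-diet rat 22, RT1-Ba and RT1-Bb passed that limit, against 4.73% and 4.56% of all genes. Without high-diet rat 23 RT1-Ba did, against 5.04%. With each of the 12 full cages as a block, the differences were 0.37, 0.37, 0.35, 0.39, 0.10 and 0.12 log2 in the same order, and none was called. Without rat 5, a marked rat, the difference was 0.19 log2 for Cd74, RT1-Ba and RT1-Bb. Rat 25 was marked too. Without both rats the difference was 0.10 for Cd74, 0.11 for RT1-Ba and RT1-Bb, 0.06 for RT1-Da and 0.01 log2 for RT1-Db1. Over all 26 rats the class II differences by tail mark were about as large as those of low or high minus control.

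Rats of a cage did not share the high levels. In the cage of rat 5, Cd74 was 12.22 in rat 5 and 9.33 in its cage mate, rat 6, the lowest of the low diet. In the cage of rat 25 it was 11.19 and, in rat 26, 9.79. High-diet rat 23, at 10.48, shared its cage with rat 22, at 9.18, the lowest of the high diet. Over the 12 cages with both rats, the gap in Cd74 had a median of 0.61 log2 and ran from 0.03 to 2.88 log2. The intraclass correlation of cage mates lay between -0.59 (RT1-Db1) and -0.23 (RT1-Da) for class II genes, and subtraction of diet means from few cages itself lowers such a value.

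After subtraction of diet means the 5 class II genes varied together over the rats. Pearson's r for the 10 pairs lay between 0.878 (RT1-Bb and RT1-Db1) and 0.979 (RT1-Ba and RT1-Bb), with a median of 0.951 over 26 rats. The pairs with RT1-Db1 had the lowest values, from 0.878 to 0.917. Spearman's rho had a median of 0.886. Each pair shares arrays, tissue blocks and cages, and the values chose the genes, so no p is given.

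The covariation did not rest on rats 5 and 25 alone. Without these 2 rats, which had the class II mean farthest from its median, r lay between 0.709 and 0.943 with a median of 0.834, and rho had a median of 0.813. Within the low diet the median r was 0.960 (n = 8), within control 0.746 (n = 9) and within high 0.970 (n = 9). Over the means of the 14 cages it was 0.909. Every class II gene was above its diet mean in rats 5, 15, 17, 23, 24 and 25, and none was in 12 rats.

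**Figure D2:**
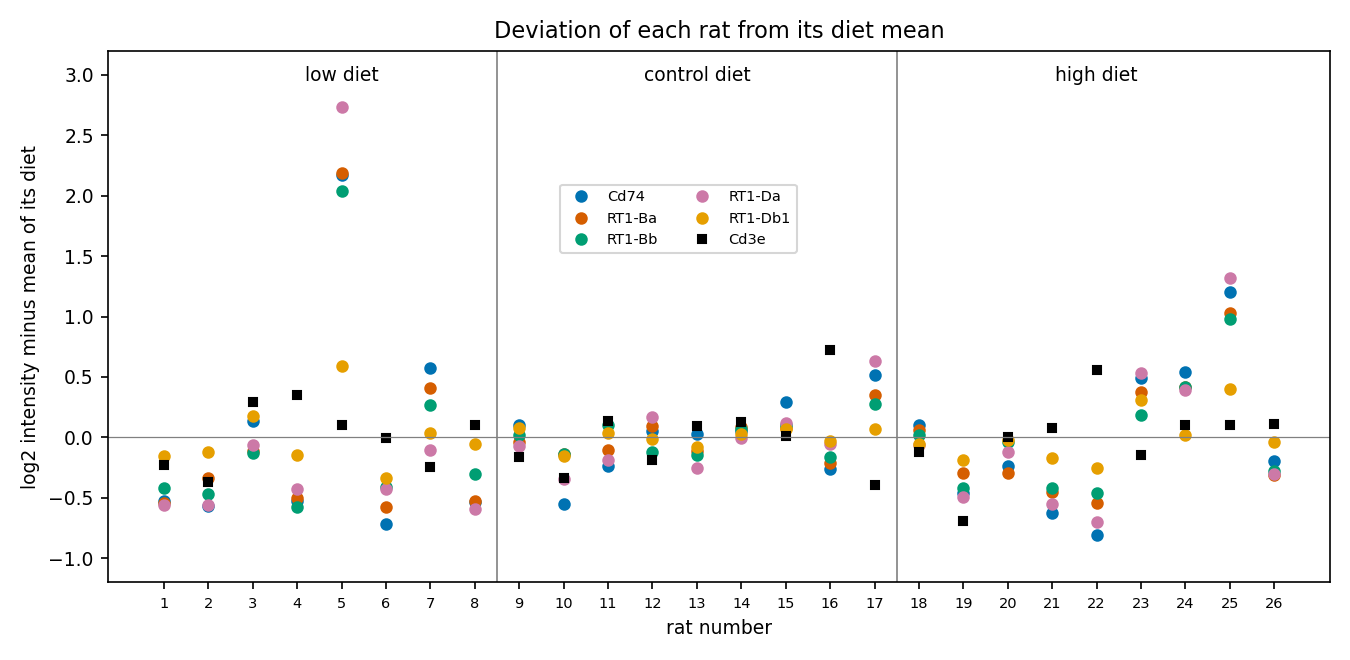
Log2 intensity minus the mean of the rat's diet (vertical axis) for the 6 genes in rats 1 to 26 (horizontal axis), with 1 point for each gene and rat. The coloured class II points of a rat lie close together, with rats 5 and 25 far above the line at 0, while the black squares of Cd3e do not follow them.

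Cd3e was not among the genes that varied together. Its lowest, median and highest values were 6.88, 7.29 and 7.60 on the low diet, 6.71, 7.12 and 7.83 on the control diet and 6.23, 7.00 and 7.48 on the high diet. On each diet the top rat for Cd3e was another than for the class II genes, and some rats stood at opposite ends. Rat 16 was the highest control rat for Cd3e, and rat 17, the highest for 4 class II genes, was the lowest. High-diet rat 22, the highest for Cd3e, was the lowest high-diet rat for every class II gene. With the class II genes, Cd3e had r between -0.058 (RT1-Ba) and 0.060 (RT1-Db1), with a median of 0.016. Rat 5, at 7.35, was 0.05 log2 above the low median of Cd3e, and rat 25, at 7.02, was 0.03 log2 above the high median.

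The mean of Cd3e was 7.25 ± 0.26 for low (SD, n = 8), 7.11 ± 0.33 for control (n = 9) and 6.92 ± 0.33 for high (n = 9). High minus low was -0.33 log2 (SE 0.14, 95% interval -0.61 to -0.05), with an unadjusted p of 0.023 and an adjusted p of 0.852 in limma. The difference was thus not called, and 2.50% of all genes were lower on high at an unadjusted p under 0.05. High minus control was -0.19 log2 (SE 0.13) and low minus control 0.14 log2 (SE 0.14), both with intervals that include 0. Without high-diet rat 19 high minus low was -0.24 log2, and without high-diet rat 22 it was -0.40 log2.

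Cd3e was set against a list of other T-cell genes. Of 36 listed genes 32 were measured, and 2 of these, among them Cd4, lay at or above the median level of all probe sets. The other CD3 chain genes had mean levels of 5.23 (Cd3d), 5.14 (Cd3g) and 5.53 (Cd247), all below that median, and r with Cd3e of -0.13, -0.10 and -0.03. In Cd8a, a co-receptor of cytotoxic T cells, r with Cd3e was -0.52. None of the 32 genes (0%, near the 3.5% of all genes) had r over 0.5 with Cd3e, and their highest was 0.22 (Lck). Of these 32 genes 30 lay below the median level, and whether low signal plays a part in their low r was not tested. The 2 above it, Cd4 and Il7r, had r of -0.07 and -0.15 with Cd3e. What these low r mean for the label was not tested, and Cd3e is described here by its name. Whether its probe set matches Cd3e alone was not tested, and probe positions were not used here.

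Several of the genes most like Cd3e over the 26 rats are known from neurons. The 8 with the highest r were Tnxa-ps1 (0.85), a tenascin pseudogene, Htr1b (0.84), the serotonin 1B receptor, Slc29a4 (0.83), a monoamine transporter, Wfs1 (0.82), a protein of the endoplasmic reticulum that marks pyramidal cells of hippocampal field CA1, Lingo3 (0.81), Wasl (0.81), a regulator of actin, Jph1 (0.81), a junctophilin, and Epha7 (0.80), an ephrin receptor. Without rats 5 and 25 the r of these genes with Cd3e lay between 0.80 and 0.87. Spearman's rho was 0.90 for Wfs1 and 0.89 for Htr1b. Wfs1 was lowest, at 10.99, in high-diet rat 19, which was also the lowest for Cd3e, and on the control diet highest, at 12.32, in rat 16, which was the highest for Cd3e. Leaving out 1 rat at a time, the r of Wfs1 with Cd3e stayed between 0.805 and 0.842.

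Of 10 listed genes of hippocampal neurons, 5 had r over 0.5 with Cd3e: Wfs1, Zbtb20 (0.69), Prox1 (0.63), Fibcd1 (0.61) and Neurod6 (0.59). Their number, 50% of the list, stands beside 3.5% of all genes. Without control rat 16, 5 of the 10 were over 0.5, and as Spearman's rho 4 were. Of 12 measured choroid plexus genes 4 had r over 0.5, led by Folr1 (0.56), a folate receptor, and Sostdc1 (0.55). These rested on rat 16: without it none of the 12 was over 0.5, with 0.39 for Folr1 and 0.23 for Sostdc1, and as rho none was either. Control rat 16, the highest for Cd3e, also had the highest mean of that list, at 8.04 log2 against a control median of 6.53, and its Ttr, the choroid plexus carrier of thyroid hormone, was 12.91 against a control median of 9.15. Whether the makeup of the tissue block plays a part in the Cd3e values was not tested.

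**Figure D3:**
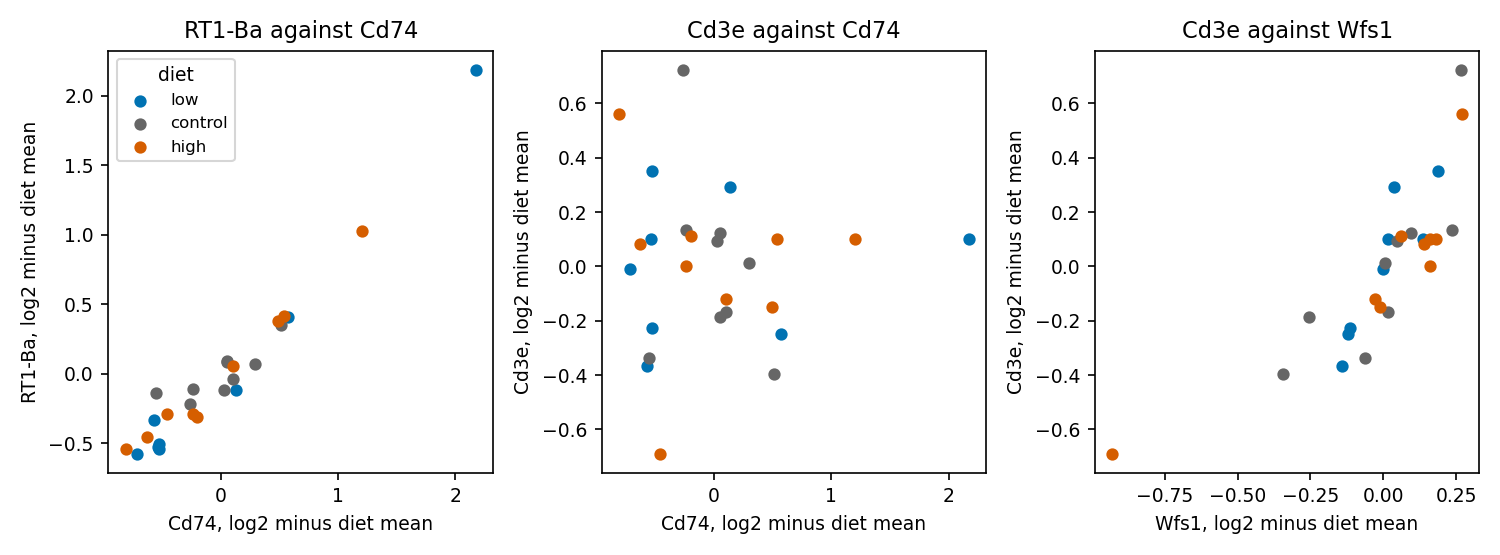
Log2 intensity minus the diet mean for RT1-Ba against Cd74 (left, r = 0.972), Cd3e against Cd74 (middle, r = -0.032) and Cd3e against Wfs1 (right, r = 0.82), with 1 point for each of 26 rats and the diet in colour. The left panel forms a line that rats of all diets share, the middle panel has no slope, and in the right panel rat 19 lies at the lower left.

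Rats 5 and 25 were then compared gene by gene with the median of their diet, over all 14506 genes. Both were picked because their class II mean was the most extreme. High ranks of class II genes in them follow in part from that choice and are only described. In rat 25 the 5 class II genes took ranks 1 to 5: RT1-Da exceeded the high-diet median by 1.43 log2, Cd74 by 1.40, RT1-Ba by 1.32, RT1-Bb by 1.01 and RT1-Db1 by 0.44. Only 4 genes of that array exceeded the median of their diet by over 0.5 log2, and all 4 were class II genes, while 18 genes lay more than 0.5 log2 below it, among them Ttr at -1.59 log2. In rat 5 no gene lay so far below. Next after class II in rat 25 came Hbb, a haemoglobin chain, which exceeded the high-diet median by 0.44 log2.

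In rat 5 the class II genes also led, with RT1-Da (3.16 log2), Cd74 (2.70), RT1-Ba (2.61) and RT1-Bb (2.40) at ranks 1 to 4 and RT1-Db1 (0.67) at rank 32. Here 61 genes exceeded the low-diet median by over 0.5 log2 and 17 by over 1 log2. Those that followed class II were Ifi47, an interferon-induced GTPase (1.71), Plac8 (1.66), Clec7a, a receptor for fungal glucans on myeloid cells (1.58), Cybb, the catalytic subunit of the phagocyte oxidase (1.54), and Cd68, a lysosomal protein of macrophages (1.38). These followers were named after their values were seen.

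The microglia list set the 2 rats apart. In rat 5, 14 of its 15 measured genes (93.3%, beside 49.4% of all genes) were above the low-diet median, with a median excess of 0.32 log2, and the complement genes C1qa, C1qc and C1qb were 1.06, 1.01 and 0.97 log2 above it. In rat 25, 6 of the 15 genes (40%, near the 42.6% of all genes) were above the high-diet median, with C1qa at -0.03 log2 and Itgam, the integrin alpha M chain, at -0.18 log2. The other genes of the list ran from -0.10 (Gpr34) over 0.00 (P2ry12), 0.28 (Tmem119) and 0.29 log2 (Cx3cr1 and Csf1r) to 0.78 log2 (Itgam) in rat 5. The list mean ran from 9.05 to 9.57 log2 on low, with rat 5 the highest, from 9.08 to 9.17 on control and from 9.11 to 9.23 on high, where rat 25 had 9.14. For T-cell genes, 23 of 32 (71.9%) were above the diet median in rat 5, with a median excess of 0.05 log2, and 4 of 32 (12.5%) in rat 25. The choroid plexus list had a mean of 6.68 log2 in rat 5, between 6.29 and 6.75 for the low diet, and of 6.25 in rat 25, the lowest of the high diet. What part such cells have in the class II levels was not tested.

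**Figure D4:**
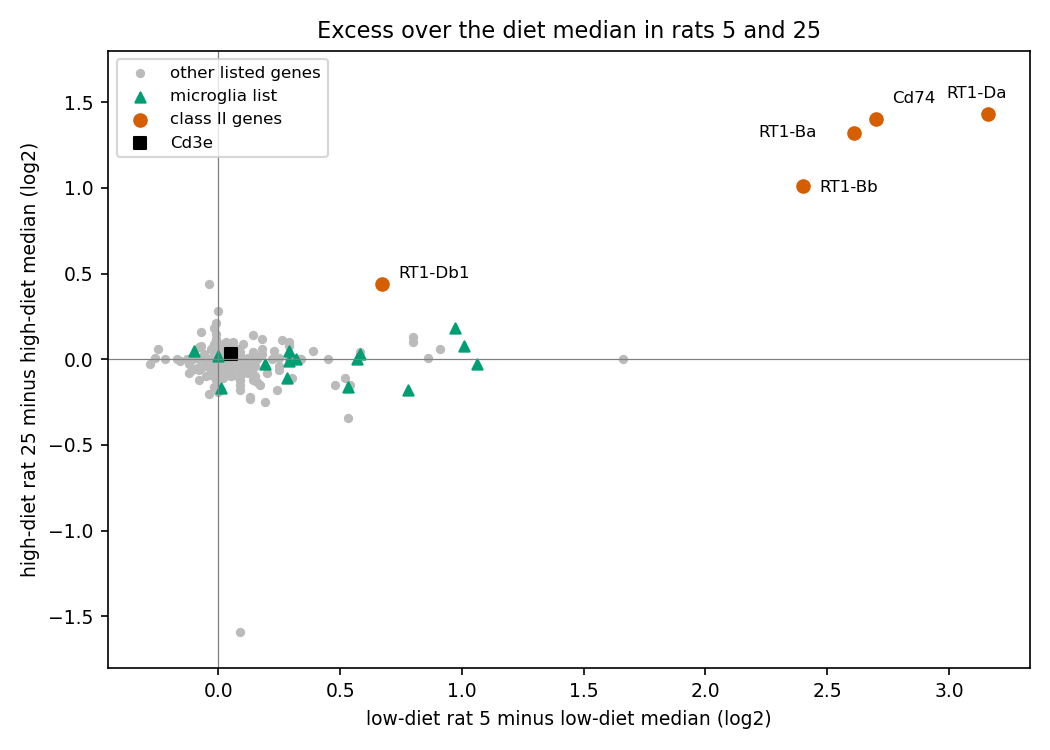
Log2 intensity of rat 5 minus the low-diet median (horizontal axis) against that of rat 25 minus the high-diet median (vertical axis), with 1 point for each class II gene, Cd3e and each gene of the cell type and pathway lists. Class II genes lie at the upper right, with RT1-Da at 3.16 and 1.43, whereas microglial genes spread to the right, up to 1.06, and stay near 0 on the vertical axis.

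The rats that followed, also picked for their class II levels, differed in what else was high. In high-diet rat 24, Cd74 was 0.74 log2 above the diet median, at rank 7 of all genes, and the genes before it were Cxcl13, a chemokine for B cells (2.93), Ttr (2.48), Fcnb, a ficolin (1.33), Clec7a (1.13), Kcnj13 (1.08) and Clic6 (1.01). RT1-Ba (0.71), RT1-Da (0.52) and RT1-Bb (0.45) followed at ranks 8, 11 and 14 there, and RT1-Db1 (0.06) was at rank 2621. In high-diet rat 23, Cd74 (0.69 log2), RT1-Ba (0.67) and RT1-Da (0.66) took ranks 2 to 4 behind Npas4, an activity-dependent transcription factor (0.99), with RT1-Db1 (0.35) at rank 7 and RT1-Bb (0.22) at rank 107. In control rat 17, Cd74 was 0.46 log2 above its diet median at rank 122, behind genes such as Npas4 (2.30) and Sema3a (2.20), with RT1-Da (0.69) at rank 61, RT1-Ba (0.39) at 165, RT1-Bb (0.25) at 384 and RT1-Db1 (0.04) at 4017. These genes too were named after their values were seen.

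Other genes were ranked by how closely they followed the class II mean over the 26 rats. The class II mean is the average of the 5 genes after each was centred on diet means and scaled to unit SD. The 12 genes of highest r were Gapt, an adaptor protein (0.89), C3, the central complement component (0.81), Fcgr3a, an Fc receptor (0.79), Dock8 (0.79), Csf1r, the receptor of the main microglial growth factor (0.78), Pim1, a kinase (0.78), Dock2 (0.77), Gpr15lg (0.75), Ifi47 (0.74), Cd53, a tetraspanin of leukocytes (0.74), Lgals3bp (0.74) and Ly86 (0.73). Of the 12, Csf1r and Cd53 are on the microglia list, which holds 4 of the 50 genes of highest r. All 12 were highest in rat 5 among low-diet rats.

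Rat 5 carried much of this likeness. Without rat 5 alone, r fell to 0.720 for Gapt, 0.547 for C3, 0.420 for Dock8, 0.427 for Csf1r, 0.327 for Fcgr3a and 0.166 for Ly86. Without rats 5 and 25, r was 0.75 for Gapt and 0.70 for C3, and it lay between 0.19 (Gpr15lg) and 0.58 (Dock8) for the other 10. Gapt ran from 5.98 over 6.12 to 7.28 on low, from 6.08 over 6.16 to 6.35 on control and from 6.11 over 6.24 to 6.39 on high. Its highest high-diet rat was rat 23, and rat 25 had 6.36. C3 was 10.63 in rat 5 against a low median of 9.70, and 9.88 in rat 25, equal to the high median.

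The genes that act on class II molecules or their peptides followed in part. Of 25 listed genes of class II processing and regulation 22 were measured, and 5 of them (22.7%) had r over 0.5 with the class II mean, against 177 of 14500 genes (1.22%) when all genes but the 6 are counted. Their median r was 0.19, beside -0.01 over those 14500. The 6 of highest r were RT1-DMb, a chain of the peptide exchange factor (0.70), Ctss, the cathepsin that trims the invariant chain (0.61), Ifi30, a lysosomal thiol reductase (0.58), Lgmn, an endopeptidase (0.56), RT1-DOb, a chain of the DM inhibitor (0.54), and Lag3, an inhibitory receptor that binds class II (0.45). Without rats 5 and 25 these values were 0.38, 0.08, 0.34, 0.17, 0.08 and -0.07. In that setting 2 of the 22 genes (9.09%) had r over 0.5, beside 110 of 14500 genes (0.759%).

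The factors that bind the promoter module had low r with the class II mean. Ciita had r of 0.31 with a mean level of 5.55, below the median of all probe sets, and r of 0.52 without rats 5 and 25. Rfx5 had 0.14, Rfxap 0.04, Rfxank -0.01, Nfya -0.11, Nfyb -0.06, Nfyc 0.23 and Creb1 0.05. RT1-DMa, the partner chain of RT1-DMb, had r of 0.32. In rat 5 Ciita was 0.03 log2 above the diet median, and in rat 25 it was -0.03 log2 from it.

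Of 15 microglial genes, 9 (60.0%) had r over 0.5 with the class II mean, with a median r of 0.62, led by Csf1r (0.78), Cd53 (0.74) and Itgam (0.71). Without rats 5 and 25 the count was 2 of 15 (13.3%), beside 0.759% of all genes in that setting, and the median r was 0.29. These 2 were Itgam (0.58) and Gpr34 (0.53), while Csf1r had 0.32 and Cd53 0.33. C1qa, C1qb and C1qc changed sign, from 0.63, 0.70 and 0.64 over all rats to -0.39, -0.18 and -0.23. Of 30 MHC class I genes 4 (13.3%, beside 1.22% of all genes) had r over 0.5, and the list's median r was 0.18. The leading genes were Psme1, a proteasome activator subunit (0.71), B2m, the light chain of class I (0.69), and Psmb9, an immunoproteasome subunit (0.66). Of 29 interferon-response genes 3 (10.3%) had r over 0.5: Mx1 (0.72), Gbp2 (0.61) and Gbp5 (0.53). The median r of this list was 0.08, and r was positive in 20 of the 29. Isg15 and Ifit3 ranked near the end, at 14205 and 14255 of 14500 genes. Without rats 5 and 25, 0 of the 30 class I genes and 1 of the 29 interferon genes, Gbp2 (0.56), were over 0.5.

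Of the 32 T-cell genes, Cd4 alone had r over 0.5 with the class II mean (0.72, and 0.56 without rats 5 and 25), followed by Icos (0.49) and Cd8b (0.41), and the list's median r was 0.03. In rats Cd4 is also made by macrophages and microglia. Cd3d, Cd3g and Cd247 had r of 0.09, -0.33 and -0.14 with the class II mean. In the other immune lists the genes of highest r were Plac8 (0.73) of 10 monocyte and neutrophil genes, 3 of them over 0.5, Irf8 (0.62) of 12 dendritic-cell genes, Cd22 (0.47) of 7 B-cell genes, Pf4 (0.31) of 7 border-macrophage genes and Ncr1 (0.13) of 6 natural killer cell genes. Plac8 had 0.22, Irf8 0.15 and Cd22 0.04 without rats 5 and 25, and no monocyte, neutrophil or dendritic-cell gene was over 0.5. In the lists of red blood cells, choroid plexus, meningeal fibroblasts, endothelium, astrocytes, oligodendrocytes and hippocampal neurons the highest values were 0.26 (Hbe1), 0.11 (Kcne2), 0.15 (Col1a1), 0.19 (Cldn5), 0.22 (Aqp4), 0.27 (Mag) and 0.08 (Slc17a7), so none had a gene over 0.5.

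**Figure D5:**
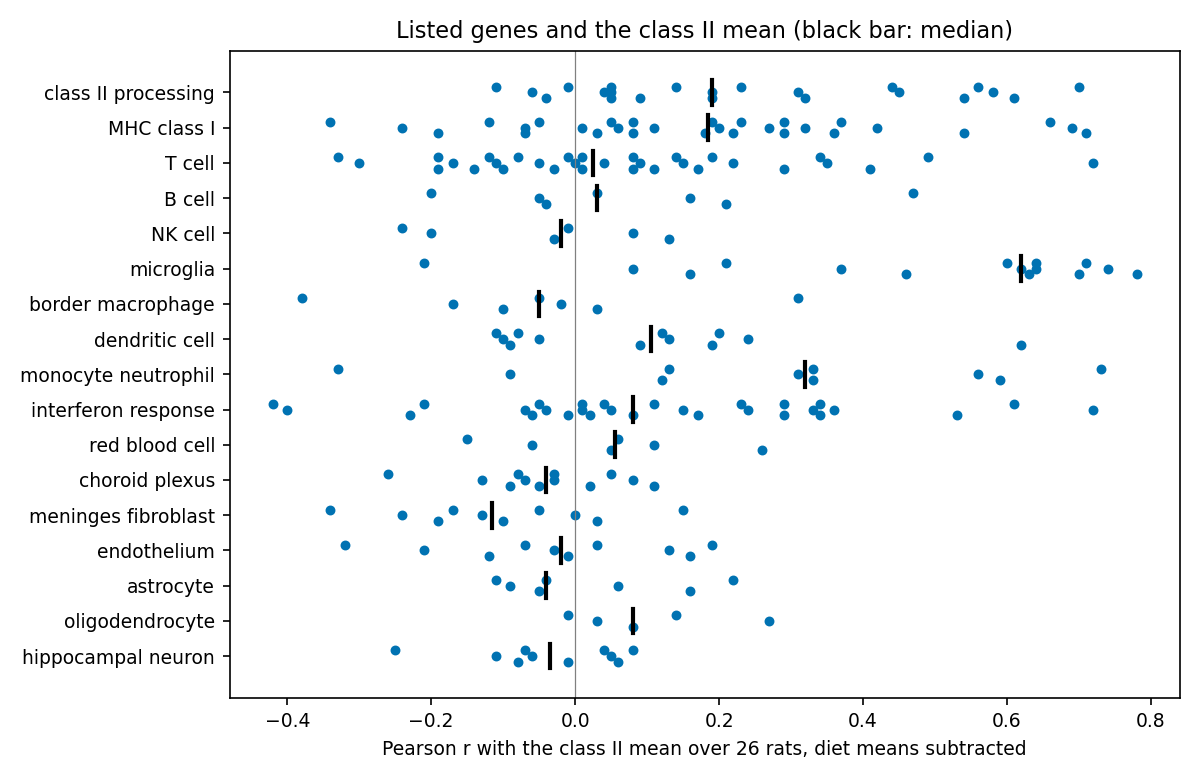
Pearson's r with the class II mean over 26 rats after subtraction of diet means (horizontal axis) for the measured genes of 17 lists (vertical axis), with 1 point for each gene and a black bar at the median. The microglia list has the highest median, 0.62, and the other medians lie at or under 0.32, with that of T-cell genes at 0.03.

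By diet, none of the measured genes of these lists was called in any contrast, as was true of all genes. In the class II processing list the median difference was -0.009 log2 for high minus low, -0.011 for high minus control and 0.002 for low minus control, beside 0.002, 0.004 and 0.001 for all genes. In the microglia list these medians were -0.024, 0.020 and 0.032 log2, and 13 of its 15 genes were higher on low than on control, beside 7371 of 14500 among all genes. None of the 15 had an unadjusted p under 0.05 for low minus control, and the low group includes rat 5, in which 14 of them were above the diet median. In the T-cell list they were -0.004, -0.009 and -0.013 log2.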

How the data were processed

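Hippocampal RNA of 26 rats was measured with 1 array each. The deposited table holds log2 probe set intensities from the authors. The submitters' processing notes name Partek 6.6 and GCRMA without saying what each did, and other steps are not given in the sources used here. The table had 29214 probe sets, 0 missing values and values from 4.28 to 15.4, and it was used without further normalization. The array annotation gave 1 gene symbol to 15310 probe sets, several to 323 and none to 13581. The probe set of highest mean was kept for each of 14506 genes, of which 14481 gene IDs were found in RefSeq (GRCr8).

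Python 3.11.15 and R 4.3.3 were used. Linear models with limma 3.58.1 had diet as a factor over all 26 arrays, with 2-sided contrasts and Benjamini-Hochberg adjustment over all genes. Rats are separate animals, and the p-values measure the spread between them. The number of arrays limits the precision. The fits were tested on simulated data. Genes named were the 6 members, the 12 genes most correlated with the class II mean, the 8 most correlated with Cd3e and, by r, the leading genes of 17 lists (271 symbols, 229 measured). The members and lists were chosen with earlier results of these data known. Settings tried were an intensity filter, each probe set on its own, quantile or median scaling, cage as a random block (consensus correlation 0.0787), array weights, a trended robust prior, fits to the compared diets alone, the tail mark, omission of values more than 2 SD off the mean of their diet, no moderation, a trend over log10 dose, other thresholds (0.05 and 0.31) and each array left out.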

Additional observations from a re-analysis of the deposited data

Results flagged for a closer look

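In 18 sets of values, the 6 genes on each of 3 diets, 5 had a rat whose gap to the nearest other rat was large for the range of its group. Chance alone marks about 1 in 20 such sets. The genes were chosen with these values known, so the count cannot be set against that rate. Low-diet rat 5 was the highest in 4 of them, with 12.22 for Cd74, 9.49 for RT1-Ba, 9.43 for RT1-Bb and 9.76 for RT1-Da. These 4 genes vary together, so the 4 values are not independent. The other was control rat 16, with 7.83 for Cd3e.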

How the results depend on the processing

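No paired analysis was possible between diets because they share no replicate numbers and each cage lies within a diet. Marked and unmarked rats are paired by cage, and with the cages as a fixed block, a setting added after seeing the data, 0 genes were called, as without it. Of 1130 tests of the 6 genes under other settings 0 passed the threshold (lowest adjusted p 0.511 in limma), and 18 changed sign. High minus low became 0.25 for Cd74, 0.25 for RT1-Ba and 0.086 log2 for RT1-Da with values over 2 SD removed, and 0.10, 0.12 and 0.086 without rats 5 and 25, a setting chosen after seeing the data. Marked minus unmarked for Cd3e became -0.00019 log2 with values over 2 SD removed. With single rats left out, high minus low ran from -0.21 to 0.25 for Cd74, -0.19 to 0.25 for RT1-Ba, -0.35 to 0.067 for RT1-Bb, -0.31 to 0.25 for RT1-Da and -0.022 to 0.11 for RT1-Db1, the ends being without rat 25 and without rat 5.

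Over all genes, removal of values over 2 SD gave 15 calls in the F-test, 21 for high minus low and 10 for high minus control, against 0 in each of the reported fits. Without rats 5 and 25 these counts were 3, 2 and 1. Leaving out single rats gave 0 to 3 in the F-test (3 without rat 25, 1 without rat 17), 0 to 3 for high minus low (3 without rat 25) and 0 to 1 for high minus control (1 without rat 17). The cause was not tested.

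The median r of class II pairs, 0.951, was 0.834 without the 2 extreme rats, 0.846 with values over 2 SD removed, 0.746 within control, 0.886 as rho and 0.813 as rho without the 2 rats, the within-diet values and the last being added after seeing the data. It ran from 0.904 to 0.963 with single rats left out. That of Cd3e with class II, 0.016, was 0.329 over cage means, -0.163 without the 2 rats, -0.243 with values over 2 SD removed and -0.312 within control, and ran from -0.074 to 0.097 with single rats left out. Over all settings, 102 correlations moved and 1187 stayed close to the reported value, as 10 and 190 counts of genes did. A correlation was counted as moved if it differed by at least an error computed from the fits with single rats left out. Those fits are among the settings counted, and few of them can differ by so much. The totals are therefore no measure of stability.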
